A study of Homo sapiens with 6 samples.

Results

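Romidepsin-only peaks are stretches of the genome called as enriched for H3AcK9, histone 3 acetylated at lysine 9, in romidepsin-treated cells and in neither untreated nor vorinostat-treated cells. Members were the peaks of at least 500 bp in the first romidepsin list that shared at least 1 bp with a peak of at least 500 bp in the second romidepsin list, and no base with any untreated or vorinostat peak. On the 20 chromosomes used (1 to 22 without 13 and 21) 5547 peaks met this rule, out of 138963 first-list romidepsin peaks that were wide enough and matched, and out of 3825605 peaks in all 5 lists. The members were thus chosen by presence, absence and width in these same lists, so their presence with romidepsin is the definition and not a result.

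The cells were SKOV3 wild type, an established human ovarian carcinoma line, and all groups came from this 1 line. Cells were left untreated or were exposed for 24 h to vorinostat or to romidepsin, each at 1 times its IC50, the concentration that inhibits the measured response by 50%. There was 1 H3AcK9 ChIP sample per condition, together with 3 input samples that have no peak list and enter no result. According to the labels the company that sequenced the treated samples divided each of them, which gave 2 lists per drug and 1 list for untreated cells. The study's reporting summary likewise describes a split, although a table note and the supplement description speak of independent experiments or biological replicates. The lists of a drug are taken here as parts of 1 sample and not as replicates. No difference between conditions therefore has a replicate check, no p-value is given, and the 95% Clopper-Pearson intervals printed with shares cover counting error only.

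Acetylation of this lysine is found at promoters and enhancers in use, where it loosens the hold of the histone tail on DNA and is read by bromodomain proteins. Acetyltransferases add the mark and histone deacetylases (HDACs) remove it, so HDAC inhibitors let acetylation accumulate. Romidepsin is a cyclic depsipeptide that is reduced inside the cell to a zinc-binding thiol and acts mainly on class I HDACs. Vorinostat is a hydroxamic acid with a broader range of HDACs. In a ChIP of a cell population, more cells that carry the mark at a place and more mark per cell cannot be told apart.

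The lists differed in the number and width of their peaks. On the 20 chromosomes the untreated list held 352674 peaks with a median width of 542 bp, whereas the 4 drug lists held 851523 to 884969 peaks with medians of 205 to 219 bp. The covered length was 326 Mb in untreated cells, 321 and 308 Mb with romidepsin, and 293 and 280 Mb with vorinostat. The romidepsin lists held no peak on chromosome 13 or X, and the second one held none on chromosome 21. Positions are given in hg19. The labels name hg38, but a deposited peak ends at base 249238565 of chromosome 1, past the hg38 length of 248956422, and contigs carry hg19-style names. No genome or annotation of that build was used here, so regions are given by position without gene, exon or intron.

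Most wide romidepsin peaks were shared with the other conditions. Of 884969 peaks in the first romidepsin list, 176046 were at least 500 bp wide, and 138963 of these (78.9%) matched a wide peak of the second list. Among the matched peaks 30216 (21.7%) had no untreated base. Of those 30216, 20812 (68.9%) touched both vorinostat lists and 3857 (12.8%) touched exactly 1 of them. The remaining 5547, or 18.4% (95% interval 17.9 to 18.8%), touched neither and are the romidepsin-only peaks, which make up 3.99% of the matched romidepsin peaks (3.89 to 4.10%). For scale, 4121 of the 176046 wide first-list peaks (2.34%) had no base in the second list of the same sample. Absence from a single vorinostat list was 10.9% of matched romidepsin peaks for the first list and 10.1% for the second. These shares count matched peaks, whereas the 2.34% counts all wide peaks. The 3.99% further needs absence from every untreated and vorinostat list, so the 2.34% is not directly comparable with it.

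The same rule with the drugs exchanged gave the most like set, the vorinostat-only peaks. There were 3138 of them among 111817 matched vorinostat peaks, or 2.81% (2.71 to 2.90%). Romidepsin-only peaks outnumbered vorinostat-only peaks 1.77 to 1 (1.69 to 1.85), against a ratio of 1.24 for all matched peaks. Among peaks without an untreated base, 18.4% were romidepsin-only and 14.5% vorinostat-only. Both sets share the untreated list as a comparator, and the romidepsin lists cover more bases than the vorinostat lists they are compared with. The excess was smaller where the peaks stood farther from other conditions: with no other peak closer than 1000 bp, 685 romidepsin-only and 613 vorinostat-only peaks remained, a ratio of 1.12 (1.00 to 1.25). With only peaks scored at least 1 kept in every list the ratio was 1.03, with an interval that includes 1 (0.981 to 1.08).

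Romidepsin-only peaks were narrow, close to the limit the rule set. Their median width was 603 bp, with the middle 50% between 544 and 716 bp and a maximum of 2927 bp. Matched romidepsin peaks as a whole had a median of 859 bp, those shared with vorinostat but not with untreated cells 718 bp, and vorinostat-only peaks 587.5 bp. Of the 5547, 1527 reached 700 bp, 252 reached 1000 bp and 15 reached 1500 bp. At the limit, 329 members were under 510 bp wide with a median score of 0.840, and 99 peaks of at least 490 but under 500 bp that otherwise met the rule had a median score of 0.823. The score is the authors' own value for each peak and its scale is not stated.

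Exactly the same start and end were called in both lists for 2451 members (44.2%), compared with 27.0% of all matched romidepsin peaks and 31.8% of those shared with vorinostat. Drug-only peaks of vorinostat were alike in this, with identical ends for 1342 of 3138 (42.8%) and for 25.9% of all matched vorinostat peaks. Both drug-only sets were narrower than the matched peaks they are set beside, and no share at equal width was computed. The rule started from the second list gave 5622 peaks. Of the members, 5171 (93.2%) shared a base with these, an agreement that the required match between the lists largely fixes. Scores, which the rule did not match between the lists, agreed little. Over the 2451 members with identical ends, the Spearman correlation between the scores of the 2 lists was 0.07, and the higher score was at least 2 times the lower in 156 of them (6.36%). Over all 37479 matched romidepsin peaks with identical ends these were 0.11 and 3.25%, and over the 1342 vorinostat-only peaks 0.07 and 8.79%. These correlations run across peaks of 1 sample and describe the lists only.

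Few romidepsin-only peaks stood alone in the genome. The nearest peak of another condition lay a median of 307 bp away (296 to 319 bp), 3757 members (67.7%) had one within 500 bp and 4862 (87.7%) within 1 kb. The median distance was 1028 bp to the nearest untreated peak and 479 and 484 bp to the nearest peak of the first and second vorinostat lists. In untreated cells 2474 members (44.6%) sat in a gap of at most 5 kb between 2 peaks, compared with 31.2% of vorinostat-only peaks and 53.1% of the romidepsin peaks shared with vorinostat. Only 39 members lay 20 kb or more from any untreated peak, against 101 of the smaller vorinostat-only set. Near the limit of the rule, 656 members were within 50 bp of another condition's peak, with a median score of 0.846, and 986 matched peaks shared 1 to 50 bases with one, with a median of 0.852. Vorinostat-only peaks were also close to other peaks, with a median of 334.5 bp, 63.3% within 500 bp and 80.5% within 1 kb. Closeness to peaks of other conditions was thus common to both sets.

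The surroundings also differed between lists. Within 5 kb of the centre of a member, the median number of covered bases was 2703 and 2634 in the romidepsin lists, 1414 in the untreated list and 1400 and 1356 in the vorinostat lists. The central peak itself, which the rule required in these lists and barred from the others, is part of these sums. With the central 1 kb on each side left out, cover was higher in each romidepsin list than in each other list at 2281 of the 5547 (41.1%), compared with 29.8% of all matched romidepsin peaks. The like count of vorinostat lists was 25.6% of vorinostat-only and 9.62% of all matched vorinostat peaks. By the rule, however, members sit in gaps of the other lists. Around romidepsin-only peaks the median gap was 5713 bp in the untreated list and 2974 and 3131 bp in the vorinostat lists. Such gaps reach past the left-out centre, so the higher counts of both drug-only sets are partly built in. On average, at 1 to 2 kb from the centre, mean cover was 25.2 and 24.7% with romidepsin, 17.8% in untreated cells and 17.4 and 16.7% with vorinostat. At 8 to 10 kb the values were 26.5 and 25.9%, 23.2%, and 20.9 and 20.3%. The romidepsin lists were thus highest throughout, and the untreated list came closest to them far from the centre.

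Vorinostat-only peaks lay in sparser chromatin. Their median cover within 5 kb was 1644.5 and 1635 bases in the vorinostat lists, 954 and 965 in the romidepsin lists and 818.5 in the untreated list. Within 50 kb, romidepsin-only peaks had medians of 24571 and 23838 covered bases with romidepsin, 21778 in untreated cells, and 19518 and 18669 with vorinostat. The corresponding medians around vorinostat-only peaks ran from 11879 to 13484 in the 5 lists. Matched romidepsin peaks as a whole stood in denser surroundings than either set, with 34683 and 32738 covered bases with romidepsin and 32141 in untreated cells. In the plot of cover by distance the lists stay apart out to 10 kb around the romidepsin-only peaks. Around the vorinostat-only ones they differ at and beside the centre and nearly coincide at 8 to 10 kb.

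Position along the chromosome was not used by the rule. It and the windows and groups described from here on were chosen after values were seen. Distance was measured from the outermost peak of each chromosome in any list. Of the romidepsin-only peaks, 1082 (19.5%, 18.5 to 20.6%) lay within 5 Mb of a chromosome end, compared with 12.7% of all matched romidepsin peaks and 15.1% of those shared with vorinostat but not with untreated cells. Of the vorinostat-only peaks, 272 (8.67%, 7.71 to 9.71%) lay there, compared with 10.8% of all matched vorinostat peaks. With the untreated list alone as comparator the vorinostat share was 11.8%, above that of all matched vorinostat peaks, and the romidepsin share was 16.1%. Chromosome ends are, as background, often rich in genes and in G and C bases. Base composition and gene content were not measured here.

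Wider romidepsin-only peaks were found near ends more often. The share within 5 Mb was 16.1% for members under 600 bp, 21.6% for those from 600 to under 800 bp and 25.7% for those of 800 bp or more. Matched romidepsin peaks of the same width classes gave 12.5, 12.97 and 12.6%, and vorinostat-only peaks gave 8.75, 8.44 and 9.01%. Counted against all matched romidepsin peaks, the romidepsin-only share was 6.16% in the outermost 1 Mb and 7.35% from 1 to 2 Mb, then 5.63, 4.07 and 3.67% at 2 to 5, 5 to 10 and 10 to 20 Mb. It was 3.62% beyond 20 Mb. The vorinostat-only share was 1.97 and 1.80% in the outermost bands and 2.96% beyond 20 Mb.

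The ratio of romidepsin-only to vorinostat-only peaks was accordingly 4.76 in the outermost 1 Mb, 6.48 from 1 to 2 Mb and 1.45 beyond 20 Mb. When only peaks without an untreated base were counted, 25.2% of those in the outermost 1 Mb were romidepsin-only, compared with 18.1% beyond 20 Mb. The same count for vorinostat gave 11.5 and 15.7%. The share near ends was higher for romidepsin-only than for all matched romidepsin peaks on 19 of the 20 chromosomes, chromosome 3 being the exception (8.17 against 8.93%). It was lower for vorinostat-only than for all matched vorinostat peaks on 12 of 20. On chromosome 16 the end share was 48.5% of romidepsin-only and 31.7% of matched romidepsin peaks, and on chromosome 11 it was 23.8 and 9.62%.

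By chromosome, romidepsin-only peaks made up between 2.37% of matched romidepsin peaks on chromosome 11 and 6.68% on chromosome 4. The share was 6.38% on chromosome 7, 5.89% on chromosome 14 and 5.54% on chromosome 22. On each of the 20 chromosomes it was above the vorinostat-only share. The counting intervals did not overlap on 15, which with 1 sample per condition is no test of a difference between the drugs. Chromosome 19 stood apart through its vorinostat-only peaks. It held 315 romidepsin-only peaks (2.99% of 10545) and 40 vorinostat-only peaks (0.586% of 6827), a ratio of 7.88, compared with 1.38 on chromosome 9 and at most 2.48 on the others.

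The sets also split by how much of the region was covered by peaks of the untreated sample. Windows of 1 Mb were ranked by untreated cover and divided into 5 equal groups. From the least to the most covered group the romidepsin-only peaks numbered 119, 457, 989, 1760 and 2222, and the vorinostat-only peaks 179, 496, 757, 962 and 744. The ratio of the counts thus went from 0.665 to 2.99. All matched romidepsin and vorinostat peaks numbered 869 and 1163 in the least covered group and 79434 and 59761 in the most covered one. The most covered group held 40.1% of the romidepsin-only and 23.7% of the vorinostat-only peaks, against 57.2 and 53.4% of all matched peaks of each drug. As a share of matched romidepsin peaks, romidepsin-only peaks went down from 13.7% in the least covered group to 2.80% in the most covered one. For vorinostat this share went from 15.4 to 1.24%. Since the rule bars any untreated base, both shares must go down as untreated cover goes up, so the decline itself is no result. The contrast between the drugs in the most covered group narrowed to 54.2 against 49.97% with scores of at least 1 in every list, and was 25.4 against 9.30% with no other peak closer than 1000 bp.

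Romidepsin-only peaks were crowded into some windows. Of 2439 windows with a matched peak of either drug, 66 held 10 or more romidepsin-only peaks and 0 held 10 or more vorinostat-only peaks. The maximum was 40 for romidepsin, among 252 matched peaks (15.9%) at chr16:1000001-2000000. There were 0 vorinostat-only peaks among 126 matched vorinostat peaks there (0 to 2.89%). The next window, chr19:3000001-4000000, held 29 romidepsin-only peaks among 289 (10.03%) and 1 vorinostat-only peak among 134 (0.746%). In the first 5 Mb of chromosome 19 there were 116 romidepsin-only peaks among 1404 matched (8.26%), and 1 vorinostat-only peak among 691 (0.145%). The 9 windows with 19 or more romidepsin-only peaks held 214 of them among 2192 matched peaks (9.76%) and 3 vorinostat-only peaks among 1115 (0.269%). All 9 lay within 5 Mb of an end. The windows named above and the first 5 Mb of chromosome 19 were picked after their counts were seen. Their high romidepsin-only shares and the contrast with vorinostat are therefore partly fixed by that choice. The most vorinostat-only peaks in a window were 9, reached in 5 windows, which held between 1 romidepsin-only peak (chr10:80000001-81000000) and 12 (chr3:14000001-15000000).

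At a finer scale most members were single. With peaks joined across gaps of up to 10 kb, 4727 members (85.2%) had no other member near, 323 groups were pairs, 40 had 3 members, 12 had 4 and 1 had 6. That group of 6 spanned chr16:1237601-1270117. Peaks covered 13108 and 12883 bases of it in the romidepsin lists, 1863 in the untreated list and 1510 and 2451 in the vorinostat lists. The romidepsin sums here and for the groups below include the members themselves, 5357 bp in the first list for this group. Its widest member, chr16:1241975-1243531, measured 1557 bp in the first list and 1516 bp in the second. In the group of 4 at chr19:2804146-2811621 the romidepsin lists covered 3580 and 3090 bases and the other 3 lists covered 0. Another group of 4, chr1:977325-989811, had 3989 and 3935 bases with romidepsin, 327 in untreated cells and 0 in both vorinostat lists. Of the 13 groups with 4 or more members, 8 lay within 5 Mb of an end.

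The widest romidepsin-only peak was chr1:913492-916418, with 2927 bp in the first list and a partner of 2066 bp in the second. Within 5 kb of its centre, cover was 5564 and 6643 bases with romidepsin, 4080 in untreated cells and 2670 and 2585 with vorinostat. For each of the 10 widest peaks the romidepsin sums include the member itself, 1579 to 2927 bp in the first list. The rule barred it from the other lists, so higher romidepsin cover is partly built in. The nearest untreated peak was 109 bp away and the nearest vorinostat peaks 108 bp, so this broad domain ran up to the edges of peaks seen in the other conditions. The peak chr7:2561114-2563028 had the same 1915 bp in both romidepsin lists. Cover around it was 6637 bases in each romidepsin list, 1765 in untreated cells, and 2367 and 2596 with vorinostat.

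At chr19:1293517-1295142 (1626 bp) the romidepsin lists covered 7299 and 7213 bases within 5 kb, the untreated list 917 and the vorinostat lists 1012 and 524. Among the 10 widest this was the largest gap between the romidepsin lists and the others. The peak chr19:4044413-4045991 (1579 bp) had 4470 and 4277 bases with romidepsin, 0 in untreated cells, and 311 and 705 with vorinostat. The opposite case was chr18:21547134-21548719 (1586 bp), where untreated cells had the most cover, 5406 bases, against 4999 and 4222 with romidepsin and 3962 and 3764 with vorinostat. Here the romidepsin-only peak filled a gap in a region acetylated in all conditions.

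The other 5 of the 10 widest were chr9:133761519-133763277, chr1:109242447-109244195, chr20:62621196-62622885, chr3:195610770-195612442 and chr19:10797023-10798645. Across all 10, cover was 4157 to 7299 and 4222 to 7213 bases in the romidepsin lists, 0 to 5406 in the untreated list, and 311 to 3962 and 524 to 3764 in the vorinostat lists. Their nearest peaks of another condition were 36 to 636 bp away, and 6 of the 10 lay within 5 Mb of an end. The rank by width rested on the first list for 4 of the 10, whose partners in the second list were at most 1131 bp wide. These were chr19:10797023-10798645 (1623 against 610 bp), chr1:109242447-109244195 (1749 against 845 bp), chr19:1293517-1295142 (1626 against 1017 bp) and chr20:62621196-62622885 (1690 against 1131 bp).

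High scores did not carry over to the second list. The 10 members with the highest first-list scores had 2.67 to 3.58 there, and their partners in the second list had 0.558 to 1.22. They were picked for high first-list scores, so lower second-list scores are partly fixed by that choice. The highest was chr4:993799-994419, with 3.58 in the first list and 0.660 in the second. At chr12:48906368-48906894 the same 527 bp scored 3.004 and 0.558. These 10 peaks were 511 to 763 bp wide. Cover within 5 kb of them, the member itself included, had medians of 1840 and 1305.5 bases with romidepsin, 441.5 in untreated cells, and 948 and 746.5 with vorinostat. The score was not used to rank members further.

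Only a small number of members were isolated from every peak of the other conditions. In 23 of the 5547 no untreated or vorinostat base lay within 5 kb of the centre. The farthest was chr18:73410931-73411474 (544 bp in the first list, 531 bp in the second), 13293 bp from the nearest vorinostat peak and 22717 bp from the nearest untreated one. At chr11:41771814-41772328 both romidepsin lists gave the same 515 bp, with the nearest vorinostat peak at 8939 bp and the nearest untreated peak at 26071 bp. At chr17:69176983-69177493 the peak was 511 bp in the first list and 696 bp in the second, with both vorinostat lists at 8777 bp and untreated cells at 17537 bp. Around the first and second of these the romidepsin lists themselves held no other covered base within 5 kb.

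The study asked which human endogenous retrovirus (HERV) loci change acetylation with these drugs. HERVs are remnants of retroviral insertions in the germ line, many of them silenced in adult tissue. The 83 loci used here are those its supplement lists with differential peaks, which the study called as changed on these same samples. They are a minority of the HERV loci it screened, and the paper reports mostly reduced acetylation at them. Of the 83, 80 lie on the chromosomes used. Of the matched romidepsin peaks 156 touched such a locus, and of these 2 (1.28%, 0.156 to 4.55%) were romidepsin-only, against 3.99% of all matched romidepsin peaks. Of 143 matched vorinostat peaks at such a locus 0 were vorinostat-only (0 to 2.55%). The supplement prints an untreated peak beside each of these loci, whereas the rule bars any untreated base. Low shares at these loci are thus partly fixed by how the loci were chosen, and no result is read from them. The first of the 2 romidepsin-only peaks, chr1:222128448-222128964, lay whole inside a HERVH locus. Total cover there was 3831 and 4045 bases with romidepsin, 4162 in untreated cells and 3696 and 3429 with vorinostat. The second, chr19:58822075-58823005, lay whole inside an HML6 locus, with 7017 and 5204 bases with romidepsin, 4876 in untreated cells and 3405 and 2617 with vorinostat. Over the whole HERVH locus the untreated cover was above that of either romidepsin list, and at the HML6 locus it was below both.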

How the data were processed

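H3AcK9 ChIP-seq of SKOV3 cells comprised 3 ChIP samples, 1 per condition, and 3 input samples without a list. The submitters' processing notes name BWA and MACS 1.4.2, and the study's reporting summary adds SOAPnuke filtering and a peak p-value of 1e-05. Peaks were called for each list. Drosophila chromatin served as a spike-in, and its use in peak calling is not given in the sources used here. The authors deposited start and end positions and a score for each peak, of unstated scale. Peak lists hold no read totals, and the study states only an average over libraries, so depth per library, and the precision it gives, is unknown.

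Overlaps, distances and covered lengths came from scripts in Python 3.11.15 with SciPy 1.17.1, pandas 2.3.3 and NumPy 2.4.6. Figures were drawn with Matplotlib 3.10.9. Counts were checked against bedtools 2.31.1 and were equal. The functions were tested on simulated data with 20000 peaks and recovered 7 of 7 quantities. Shares carry Clopper-Pearson 95% intervals. Regions named were the 10 widest, the 10 with the highest score and the 3 farthest from other conditions, and the group of 6, other groups, windows and HERV loci were named after their values were seen. HERV loci were taken by position from the study's supplementary data. Of the 646 peaks printed there beside the loci, 646 had the start and end of a deposited peak, and 83 of 83 loci shared a base with such a peak, so the loci were taken to be in the coordinates of the lists. Members and lists were chosen with earlier results of these data known.

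Planned gene lists, marker checks, distances to start sites, GC content and sequences need a genome of the lists' build and were not analysed here. Alternatives changed the width, overlap, score, comparators, chromosomes and the list of origin.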

Additional observations from a re-analysis of the deposited data

Results flagged for a closer look

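Under the rule used, the distance of drug-only peaks from chromosome ends differed in direction between the drugs. The share of romidepsin-only peaks within 5 Mb of an end exceeded that of all matched romidepsin peaks by 6.83 percentage points, whereas for vorinostat-only peaks the difference from all matched vorinostat peaks was -2.11 percentage points. With 1 sample per condition this difference was not tested. The romidepsin-only share was above that of matched peaks in 11 of 11 settings, counting the main one, and on 19 of 20 chromosomes. The size of the excess varied. With scores of at least 1 in every list it was 1.09 percentage points (15.3 against 14.2%). There the romidepsin-only interval (14.1 to 16.6%) includes the share of matched peaks. The vorinostat-only share was below that of matched vorinostat peaks in 10 of these 11 settings and on 12 of 20 chromosomes. With only wide peaks of other conditions counted the 2 shares were close (10.6 against 10.8%). With the untreated list alone as comparator the vorinostat-only share was the higher one (11.8 against 10.8%).

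The unplaced contig chr11_gl000202_random lies outside the chromosomes used. The first romidepsin list held 18 peaks on it and the second 12, against 0 in the untreated list and 0 in both vorinostat lists.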

How the results depend on the processing

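Romidepsin-only peaks outnumbered vorinostat-only peaks in 13 of 13 settings, and lay within 5 Mb of a chromosome end more often than vorinostat-only peaks in 15 of 15. They also lay more often in the most covered group of windows in 15 of 15, with shares of 25.4 to 54.2% for romidepsin-only and 9.30 to 49.97% for vorinostat-only peaks. The size of these values depended on the settings. In the order of number of romidepsin-only peaks, share of matched romidepsin peaks, ratio to vorinostat-only peaks and share within 5 Mb of an end, a minimum width of 300 bp gave 28208, 10.8%, 1.35 and 15.1%. A minimum of 1000 bp gave 149, 0.340%, 6.21 and 36.9%, with a median width of 1106 bp, a median distance of 359 bp and 0% of the 24 vorinostat-only peaks near an end. A distance of at least 500 bp from other conditions gave 1791, 1.29%, 1.55 and 22.5%, and one of 1000 bp gave 685, 0.493%, 1.12 and 24.8%. Scores of at least 1 in every list gave 3151, 24.4%, 1.03 and 15.3%, with a median width of 733 bp, a median distance of 732 bp and 10.6% of vorinostat-only peaks near an end. With only wide peaks of other conditions counted, the values were 27130, 19.5%, 1.66 and 16.97%, with 10.6% for vorinostat. The untreated list alone as comparator gave 30216, 21.7%, 1.395 and 16.1%, with 11.8% for vorinostat.

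The lists of the other drug alone gave 9795 peaks, 7.05% of matched peaks and 16.8% near an end. Leaving out the first or second vorinostat list gave 5.30 or 5.46% of matched peaks, reciprocal overlap of 50% gave 4.28%, and peaks taken from the second list had a median width of 598 bp. Without chromosome 19 the ratio was 1.69 and the end share 18.1%, and for peaks under 600 bp the end share was 16.1%. The settings for the end share and the window groups were chosen after seeing the data. Fewer or more peaks qualify by construction in each setting, and no other cause was tested. No paired analysis was possible because each condition has 1 sample. Leaving out a replicate could not be done for the same reason. Start sites and GC content were to be examined but were not run, since no genome of the build of the lists was used. Depth per library is unknown, so absence from a list does not show absence of the mark.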

Other observations

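On chromosome 21, where the second romidepsin list held no peak, no member could be defined. The first romidepsin list held 2106 peaks of at least 500 bp there, of which 159 (7.55%) shared no base with an untreated or vorinostat peak. These were not matched in a second list and are not comparable with the 3.99% of matched peaks on the other chromosomes.

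The windows richest in vorinostat-only peaks differed in how many romidepsin-only peaks they held. The 5 windows with the most, 9 each, held 1 to 12. The window chr1:30000001-31000000 held 8 vorinostat-only and 0 romidepsin-only peaks, among 119 and 74 matched peaks, and chr10:50000001-51000000 held 8 and 0 among 27 and 19. Other windows with 8 vorinostat-only peaks, chr15:79000001-80000000 and chr22:43000001-44000000, held 4 and 5 romidepsin-only peaks. In chr3:14000001-15000000 both sets were frequent, with 12 romidepsin-only and 9 vorinostat-only peaks.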
